A study of Mus musculus with 6 samples.

Results

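The genes described here are 36 genes of macrophages and other myeloid cells. They were measured in RNA labelled as that of mouse podocytes, with and without an intact Cd2bp2 gene. The 36 were chosen by symbol, with earlier results of these data known. They were found in the deposited tables through the Ensembl gene identifier of each exonic part, a stretch of exon bounded by annotated exon edges. All 36 were present as single genes among 36889 gene identifiers, and all 36 passed the filter on low counts. The value of a gene is its count summed over its exonic parts, in CPM, counts scaled to the effective library size.

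Macrophages are tissue phagocytes that arise from fetal precursors and from blood monocytes, and they depend on the transcription factor PU.1 and on signals through the CSF1 receptor. In the kidney they lie mostly between the tubules, with few inside the glomerulus, where podocytes cover the capillaries. Many of their receptors carry no signalling tail of their own and signal through adaptors with an immunoreceptor tyrosine-based activation motif (ITAM), which Src-family kinases phosphorylate.

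The KO group held 3 libraries, KO1, KO2 and KO3, labelled as podocytes of CD2BP2 Knockout genotype. The WT group held 3 libraries, WT1, WT2 and WT3, labelled as wildtype podocytes, and all 6 carry the C57BL/6 background label. CD2BP2 is a GYF domain protein that binds the U5 particle of the spliceosome, and the title of the series names splicing and podocyte integrity. Per the labels, the conditional allele was made in R1/E embryonic stem cells, with the downstream loxP site after exon 3 of the 7 exons of the gene, and the neomycin cassette was removed with FLPO. The Cre that acted in the podocytes is not named. The treatment text, the same for all 6 libraries, describes CD2BP2flox/flox MxCre+ mice and littermate controls aged 6 to 10 weeks, a 300 µg intraperitoneal dose of poly(I:C), and bone marrow macrophages grown with M-CSF. This goes against the podocyte label and against the extraction text, which starts from tissue. No label says whether each library came from its own animal. The p-values therefore refer to the spread among the 6 samples, and that spread may be technical.

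The RNA carried the markers of podocytes, and those of other kidney cells as well. The 8 podocyte markers summed to 19415 to 21201 CPM in KO and 21837 to 24546 CPM in WT. The 6 endothelial markers summed to 5843 to 6182 CPM in KO and 6329 to 6655 CPM in WT. The 6 mesangial and smooth muscle markers summed to 2220 to 2689 CPM in KO and 2409 to 2665 CPM in WT. Nphs1, which encodes nephrin of the slit diaphragm, stood at 2233, 1935 and 1873 CPM in KO1, KO2 and KO3, against 2879, 3032 and 2795 CPM in WT1, WT2 and WT3. Per kilobase of exonic parts Podxl, which encodes the podocyte surface sialomucin podocalyxin, reached 1727 CPM in KO and 1857 CPM in WT, while the macrophage gene Adgre1, which encodes F4/80, reached 1.23 CPM in KO and 0.697 CPM in WT. The targeted gene Cd2bp2 stood at 48.4, 47.3 and 51.0 CPM in KO, against 61.0, 61.8 and 60.8 CPM in WT. Summed over its exonic parts, it fell in KO with a log2 fold change of -0.32 (SE 0.05, edgeR adjusted p = 0.0297). Whether transcripts with all exons were lost was not tested, as this sum does not separate the exons. That fall passed the test without KO3 (adjusted p = 0.0457) and was lost when any 1 of the others was left out (0.0606 to 0.146). Total part counts ranged from 214948912 to 255554573 in KO and from 186022084 to 231312370 in WT.

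Of the 36 genes, 9 rose in KO and 0 fell, by edgeR's quasi-likelihood test with a Benjamini-Hochberg adjusted p under 0.05 over all genes tested. That is 25% of the 36, beside 1.62% of 19742 genes tested that were called higher in KO and 1.76% that were called lower, or 3.37% in either direction. Since the 36 were chosen with earlier results of these data known, the shares and medians given here describe them and test nothing. The 9 genes were Stx11, Lyz2, Ccr2, Fgr, Spi1, Tyrobp, Cybb, Lst1 and Cyba, which span a transcription factor, a chemokine receptor, a signalling adaptor, oxidase subunits and a lysozyme. The log2 fold change was above 0 for 33 genes and below 0 for Mrc1, Ucp2 and Cd163. The median over the 36 was 0.83, with quartiles of 0.45 and 0.95, whereas the median over all genes tested was 0.01, with quartiles of -0.14 and 0.21. In 23 of the 36, or 63.9%, every KO library lay above every WT library, which held for 14.1% of all genes tested. The reverse order held for 0 of the 36 and for 14.8% of all genes tested. At an unadjusted p under 0.05, 25 of the 36 were higher in KO, beside 11.5% of all genes tested. In bulk RNA, a different number of cells of a type and a different amount of RNA per cell cannot be told apart.

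Few of these calls held when a library was left out. Between 2 and 3 of the 36 passed when any 1 library was left out, with Stx11 in each of these 6 fits and Lyz2 in all but the fit without WT2. Over all genes, 23 to 129 were called higher in KO in those fits. DESeq2 called 22 of the 36, all higher in KO, beside 7.64% of 17416 genes with an adjusted p in DESeq2.

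**Figure D1:**
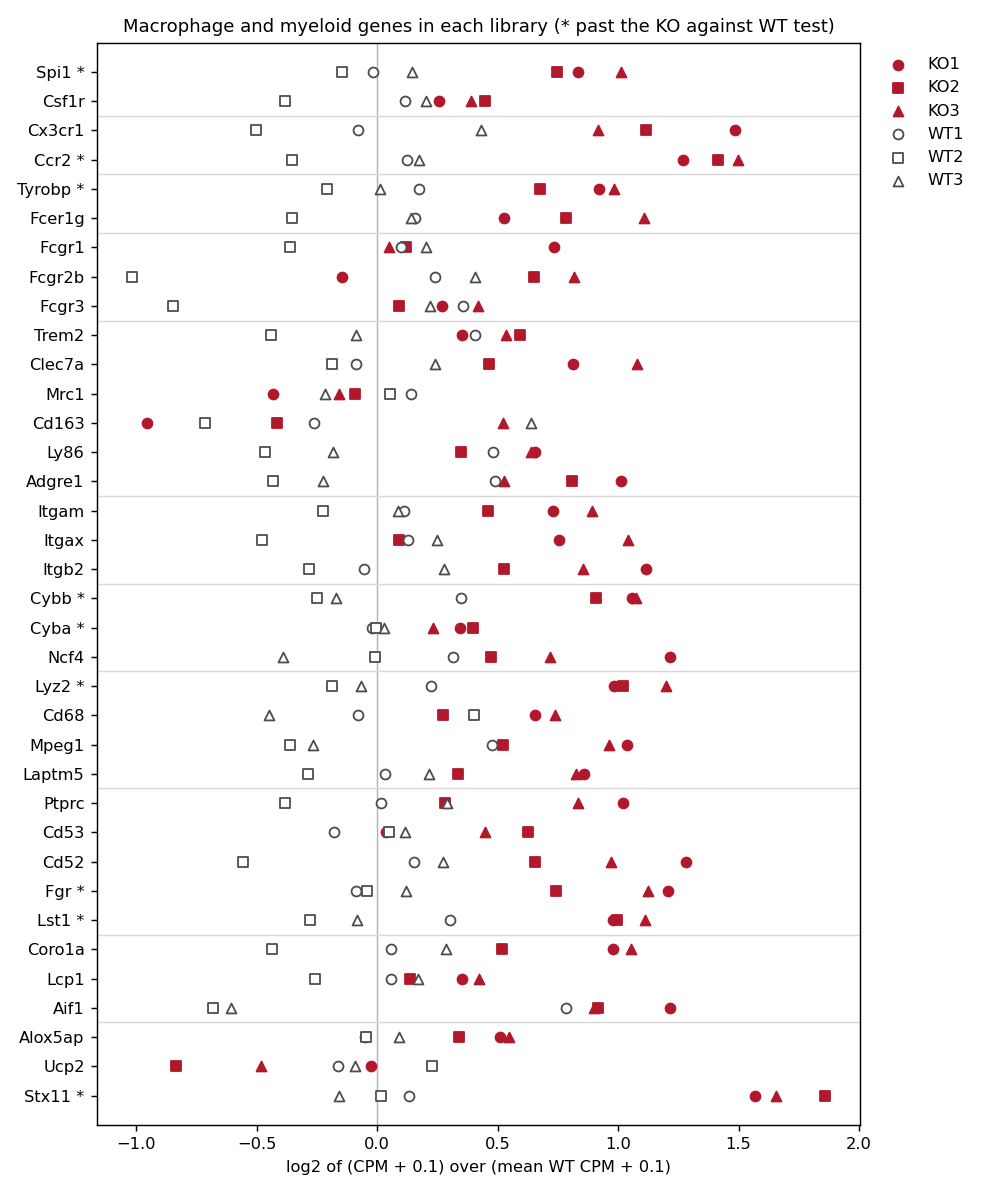
Level of each of the 36 genes in the 3 KO libraries (filled) and the 3 WT libraries (open), as log2 of CPM plus 0.1 over the WT mean plus 0.1, with grey lines between groups of roles and an asterisk on the 9 genes past the edgeR test. Stx11 stands farthest right, at 16.7 to 20.4 CPM in KO against 4.97 to 6.10 CPM in WT, while Mrc1 and Ucp2 lie left of or around the WT mean.

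The libraries of a group did not hold these genes at one level. Against the WT mean, the median of the 36 genes on the log2 scale was 0.82, 0.52 and 0.84 in KO1, KO2 and KO3, and 0.12, -0.29 and 0.12 in WT1, WT2 and WT3. KO2 was the lowest of the KO libraries for 20 of the 36 genes, and WT2 was the lowest of the WT libraries for 27. Over all genes tested, KO2 was lowest in its group for 37.8% and WT2 for 29.3%. The groups thus did not overlap in this median, and the lowest library of each group held most of the lowest values.

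The regulators of the lineage come first. Spi1 (ENSMUSG00000002111; chromosome 2, 90922547 to 90955913, NCBIM37) encodes PU.1. Its level was 4.61, 4.34 and 5.23 CPM in KO1, KO2 and KO3, against 2.51, 2.29 and 2.83 CPM in WT1, WT2 and WT3. All KO libraries lay above all WT libraries, and the gene rose with a log2 fold change of 0.89 (SE 0.14, edgeR adjusted p = 0.0325). All 12 of its exonic parts with at least 10 counts were higher in KO. Leaving out any 1 of the 6 libraries ended the call (adjusted p from 0.0511 to 0.143). Csf1r encodes the receptor for CSF1 and IL-34, which keeps macrophages alive. It stood at 44.3, 50.6 and 48.6 CPM in KO1, KO2 and KO3, against 40.1, 28.4 and 42.7 CPM in WT1, WT2 and WT3. The KO libraries lay above the WT libraries, by little between KO1 and WT3, and the log2 fold change of 0.37 (SE 0.15) did not pass (edgeR adjusted p = 0.218). On its longest exonic part alone, 1012 bases that overlap another gene and hold 10.4% of its counts, the log2 fold change was 0.0038 (adjusted p = 0.983).

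Both chemokine receptors were low in WT. Ccr2 (ENSMUSG00000049103; chromosome 9, 124016689 to 124028296, NCBIM37) encodes the receptor by which monocytes leave the bone marrow toward CCL2. It stood at 9.09, 10.1 and 10.7 CPM in KO1, KO2 and KO3, against 4.06, 2.88 and 4.20 CPM in WT1, WT2 and WT3. The groups were far apart relative to their spread, and Ccr2 rose with a log2 fold change of 1.42 (SE 0.17, edgeR adjusted p = 0.0197). It did not pass without KO1 (0.0588), KO2 (0.0629) or WT1 (0.064). Cx3cr1 encodes the fractalkine receptor of resident kidney macrophages and patrolling monocytes. Its values were 5.70, 4.38 and 3.80 CPM in KO1, KO2 and KO3, against 1.86, 1.36 and 2.69 CPM in WT1, WT2 and WT3. The groups did not overlap, with a log2 fold change of 1.23, but the KO libraries differed among themselves and the test was not passed (SE 0.28, edgeR adjusted p = 0.071).

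Tyrobp and Fcer1g encode the ITAM adaptors DAP12 and the Fc receptor gamma chain, through which TREM2 and the activating Fc receptors signal. Tyrobp (ENSMUSG00000030579; chromosome 7, 31198807 to 31202596, NCBIM37) had 10.6, 8.92 and 11.05 CPM in KO1, KO2 and KO3, against 6.26, 4.79 and 5.58 CPM in WT1, WT2 and WT3. Every KO library exceeded every WT library, and Tyrobp rose with a log2 fold change of 0.88 (SE 0.14, edgeR adjusted p = 0.0342). Its 5 exonic parts with at least 10 counts were all higher in KO, yet with any 1 library left out the adjusted p lay between 0.0648 and 0.134. Fcer1g had 5.72, 6.85 and 8.62 CPM in KO1, KO2 and KO3, against 4.40, 3.07 and 4.36 CPM in WT1, WT2 and WT3. Its groups did not overlap either, but with a log2 fold change of 0.84 it did not pass (SE 0.21, edgeR adjusted p = 0.085).

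Receptors for antibody gave a less uniform picture. The Fc gamma receptors bind antibody on opsonised particles, and 0 of the 3 passed. Fcgr1, the high-affinity receptor, had a log2 fold change of 0.36 (edgeR adjusted p = 0.475), the inhibitory Fcgr2b 0.51 (0.525) and the activating Fcgr3 0.28 (0.664). In all 3 the groups overlapped. Fcgr2b and Fcgr3 have near-identical extracellular exons, and how their reads were divided is uncertain. The log2 fold change of Fcgr3 was -0.026 without WT2. That of Fcgr1 was -0.34 on its longest exonic part alone, which holds 20.2% of its counts.

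None of the 6 pattern and scavenger receptors passed. Clec7a, which encodes the beta-glucan receptor dectin-1, had 2.71 to 4.20 CPM in KO and 1.69 to 2.30 CPM in WT, a log2 fold change of 0.84 without overlap of the groups (edgeR adjusted p = 0.0866). Adgre1 had 3.30 to 4.67 CPM in KO and 1.65 to 3.21 CPM in WT (0.82, adjusted p = 0.156), and all 25 of its exonic parts with at least 10 counts were higher in KO. Ly86, which encodes MD-1, had a log2 fold change of 0.58 (adjusted p = 0.267). Trem2 and Cd163 had the lowest mean levels of the 36 in both groups. Trem2 stood at 0.131 to 0.173 CPM in KO and 0.0333 to 0.140 CPM in WT, with a log2 fold change of 0.93 (SE 0.49, adjusted p = 0.314), and reads covered between 6.75% and 26.5% of its exonic bases. Cd163, the haemoglobin scavenger receptor, stood at 0.135 to 0.554 CPM in KO and 0.178 to 0.610 CPM in WT, with a log2 fold change of -0.21 (SE 0.64, adjusted p = 0.881). The sign of Cd163 turned without KO1 (0.15) and without WT3 (0.43). Mrc1 encodes the mannose receptor of macrophages and of some endothelial cells. It had 199, 253 and 241 CPM in KO1, KO2 and KO3, against 297, 279.8 and 232 CPM in WT1, WT2 and WT3. Its groups overlapped at WT3, the log2 fold change was -0.22 (adjusted p = 0.341), and 0 of its 32 exonic parts with at least 10 counts were higher in KO.

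The beta2 integrins carry leukocytes across vessel walls and bind complement fragments. Itgam, the CD11b subunit, had a log2 fold change of 0.71 (edgeR adjusted p = 0.0608), Itgb2, the shared CD18 subunit, 0.86 (0.0707), and Itgax, the CD11c subunit, 0.70 (0.233). The KO libraries lay above the WT libraries for Itgam, at 8.02 to 10.9 CPM in KO and 4.96 to 6.29 CPM in WT, and for Itgb2, at 16.4 to 24.8 CPM in KO and 9.36 to 13.8 CPM in WT. The groups overlapped for Itgax. All 23 exonic parts of Itgb2 with at least 10 counts, and 37 of 40 of Itgam, were higher in KO.

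Both membrane subunits of the phagocyte NADPH oxidase, the enzyme that makes superoxide in the phagosome, rose in KO. Cybb (ENSMUSG00000015340; chromosome X, 9012378 to 9064897, NCBIM37) encodes the catalytic subunit. Its level was 17.0, 15.3 and 17.2 CPM in KO1, KO2 and KO3, against 10.4, 6.82 and 7.20 CPM in WT1, WT2 and WT3. The KO libraries lay close together and WT1 was the highest of the WT libraries. The log2 fold change was 1.02 (SE 0.17, edgeR adjusted p = 0.0376), and without a library the gene passed only in the fit without WT1 (0.0351, and 0.0696 to 0.148 in the others). Cyba (ENSMUSG00000006519; chromosome 8, 124948672 to 124956840, NCBIM37) encodes the partner chain that stabilises it and also serves the oxidases of epithelial cells. It stood higher, at 40.2, 41.6 and 37.2 CPM in KO1, KO2 and KO3, against 31.1, 31.5 and 32.2 CPM in WT1, WT2 and WT3. The WT libraries were nearly level, and the rise was small, with a log2 fold change of 0.33 (SE 0.06, adjusted p = 0.0443). The call ended with any 1 library left out (0.0517 to 0.182), and with limma-voom. Ncf4, a cytosolic subunit, had 4.58, 2.70 and 3.21 CPM in KO1, KO2 and KO3, against 2.41, 1.90 and 1.44 CPM in WT1, WT2 and WT3. The groups stood apart by little, between KO2 and WT1, and the log2 fold change of 0.87 did not pass (SE 0.27, adjusted p = 0.132).

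Per kilobase of exonic parts the level of Cybb was 2.84 CPM in KO and 1.399 CPM in WT. That of Cyba was 52.3 CPM in KO and 41.7 CPM in WT. As levels per length, the catalytic subunit was thus the scarcer of the pair in both groups.

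Among lysosome and granule proteins Lyz2 (ENSMUSG00000069516; chromosome 10, 116714390 to 116719377, NCBIM37) encodes the lysozyme of macrophages, an enzyme that cleaves bacterial cell walls. It had 84.2, 86.3 and 97.8 CPM in KO1, KO2 and KO3, against 49.6, 37.3 and 40.6 CPM in WT1, WT2 and WT3. The lowest KO library was well above the highest WT library, and the means were 89.5 ± 7.32 CPM in KO and 42.5 ± 6.34 CPM in WT (SD, n = 3 each). Lyz2 rose with a log2 fold change of 1.07 (SE 0.12, edgeR adjusted p = 0.0166), and its adjusted p was 0.0731 without WT2. Its near-identical neighbour Lyz1 stood at 3.60 to 3.65 CPM in KO and 1.505 to 1.94 CPM in WT (1.09, adjusted p = 0.024), and reads of the pair may have been divided between them.

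Cd68, a lysosomal membrane glycoprotein of macrophages, had 6.91, 5.29 and 7.34 CPM in KO1, KO2 and KO3, against 4.12, 5.79 and 3.17 CPM in WT1, WT2 and WT3. WT2 exceeded KO2, and the log2 fold change of 0.58 did not pass (SE 0.24, edgeR adjusted p = 0.222). Laptm5, a lysosomal membrane protein of blood cells, had 24.0, 16.7 and 23.4 CPM in KO1, KO2 and KO3, against 13.5, 10.8 and 15.3 CPM in WT1, WT2 and WT3. Its groups did not overlap, all 25 of its exonic parts with at least 10 counts were higher in KO, and the log2 fold change was 0.70 (SE 0.18, adjusted p = 0.0954). The pore-forming protein gene Mpeg1 had 0.86 (adjusted p = 0.121).

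Of the leukocyte surface and signalling genes, Fgr and Lst1 rose. Fgr (ENSMUSG00000028874; chromosome 4, 132530010 to 132557825, NCBIM37) encodes a Src-family kinase that phosphorylates ITAM adaptors. It stood at 6.92, 4.99 and 6.54 CPM in KO1, KO2 and KO3, against 2.77, 2.86 and 3.21 CPM in WT1, WT2 and WT3. All KO libraries lay above the even WT libraries, for a log2 fold change of 1.06 (SE 0.16, edgeR adjusted p = 0.0301), and with 1 library left out it passed only without KO2 (0.0427, and 0.0555 to 0.14 in the others). Lst1 (ENSMUSG00000073412; chromosome 17, 35322040 to 35325384, NCBIM37) encodes a small leukocyte membrane protein. Its values were 2.81, 2.84 and 3.08 CPM in KO1, KO2 and KO3, against 1.72, 1.12 and 1.29 CPM in WT1, WT2 and WT3. The groups did not overlap, and the log2 fold change was 1.08 (SE 0.19, adjusted p = 0.0422), and the call ended with any 1 library left out (0.0582 to 0.153).

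Cd53, a leukocyte tetraspanin, had 48.2, 72.5 and 64.2 CPM in KO1, KO2 and KO3, against 41.5, 48.6 and 50.9 CPM in WT1, WT2 and WT3. KO1 lay within the WT range, and the log2 fold change of 0.39 did not pass (SE 0.16, edgeR adjusted p = 0.205). Ptprc, which encodes the leukocyte phosphatase CD45, had 49.9, 29.9 and 43.9 CPM in KO1, KO2 and KO3, against 24.8, 18.8 and 30.1 CPM in WT1, WT2 and WT3. KO2 and WT3 were level, and the log2 fold change of 0.75 did not pass (SE 0.23, adjusted p = 0.136). Cd52, a short glycopeptide anchored on leukocytes, had 1.02 (adjusted p = 0.0974) over all its parts and -0.10 on its longest part alone, which holds 0.989% of its counts.

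Fgr and Cybb were the 2 of the 9 risen genes whose promoter held the letters GAGGAA, the core of PU.1 sites, on either strand. The promoters run from 250 bases before to 50 bases after the start site in RefSeq (GRCm38.p6), 5′ to 3′ on the strand of the gene, with the reverse complement of the core in capitals. They are shown because Spi1 itself was among the risen genes.
Fgr promoter, chr4:132973845-132974144, plus strand: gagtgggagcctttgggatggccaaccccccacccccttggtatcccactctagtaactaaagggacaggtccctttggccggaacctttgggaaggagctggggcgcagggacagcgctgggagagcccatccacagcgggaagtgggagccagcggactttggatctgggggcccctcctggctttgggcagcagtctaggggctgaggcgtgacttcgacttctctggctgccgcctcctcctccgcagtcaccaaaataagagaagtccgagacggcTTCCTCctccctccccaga
Cybb promoter, chrX:9469275-9469574, minus strand: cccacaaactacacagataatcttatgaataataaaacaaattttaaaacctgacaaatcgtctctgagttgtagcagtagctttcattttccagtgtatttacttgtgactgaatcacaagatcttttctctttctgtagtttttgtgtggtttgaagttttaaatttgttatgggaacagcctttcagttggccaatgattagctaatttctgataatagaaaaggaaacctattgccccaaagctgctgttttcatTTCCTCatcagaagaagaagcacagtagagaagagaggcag
In both, the match lies in the 50 bases after the start site. Of the 36 genes 27 had a promoter entry and 13 of these, or 48.1%, held the core, beside 31.3% of 27025 genes with an entry and 28.3% of 32851 promoters. Of the risen genes 6 had an entry and 2 of these held the core, a share near the 31.3% of all genes with an entry. Stx11, Lyz2, Ccr2 and Cyba held no match in this window. A match of letters is a description and does not show binding.

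Of the 3 actin-binding proteins of leukocytes, 0 passed the test. Coro1a, which encodes coronin of the cortical actin of leukocytes, had 26.9 to 39.1 CPM in KO and 13.9 to 22.9 CPM in WT, with a log2 fold change of 0.87 (edgeR adjusted p = 0.0853). All 33 of its exonic parts with at least 10 counts were higher in KO. Its gene lies 0.484 Mb from Cd2bp2 on chromosome 7, and those of Itgam and Itgax 0.867 and 0.934 Mb from it. Lcp1, the leukocyte plastin, had a log2 fold change of 0.31 (0.218) with overlapping groups. Aif1, which encodes IBA1, had 1.28 to 1.62 CPM in KO and 0.361 to 1.17 CPM in WT, with 1.13 (SE 0.47, adjusted p = 0.223).

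The largest change of the 36 on the log2 scale was that of Stx11 (ENSMUSG00000039232; chromosome 10, 12659787 to 12684065, NCBIM37), which encodes syntaxin 11, a membrane fusion protein of cytotoxic granule release that macrophages also make. It stood at 16.7, 20.4 and 17.7 CPM in KO1, KO2 and KO3, against 6.10, 5.62 and 4.97 CPM in WT1, WT2 and WT3. The means were 18.3 ± 1.94 CPM in KO and 5.56 ± 0.567 CPM in WT (SD, n = 3 each), far apart relative to either spread. Stx11 rose with a log2 fold change of 1.72 (SE 0.12, edgeR adjusted p = 0.00554) and passed in all 14 alternatives, with an adjusted p of at most 0.0452. All 3 of its exonic parts with at least 10 counts were higher in KO, and reads covered 100% of its exonic bases in every library.

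Alox5ap and Ucp2 had fold changes of opposite sign, and neither passed. Alox5ap, which encodes the activator of leukotriene synthesis, had 10.3, 9.15 and 10.6 CPM in KO1, KO2 and KO3, against 6.97, 6.997 and 7.70 CPM in WT1, WT2 and WT3. Its groups did not overlap, but the log2 fold change of 0.47 fell short of the threshold (SE 0.10, edgeR adjusted p = 0.0533). Ucp2, which encodes a mitochondrial carrier made in many tissues, had 307, 175 and 224 CPM in KO1, KO2 and KO3, against 279, 366 and 293 CPM in WT1, WT2 and WT3. KO1 exceeded WT1 and WT3, and the log2 fold change was -0.41 (SE 0.21, adjusted p = 0.305), with 0 of its 30 exonic parts with at least 10 counts higher in KO.

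**Figure D2:**
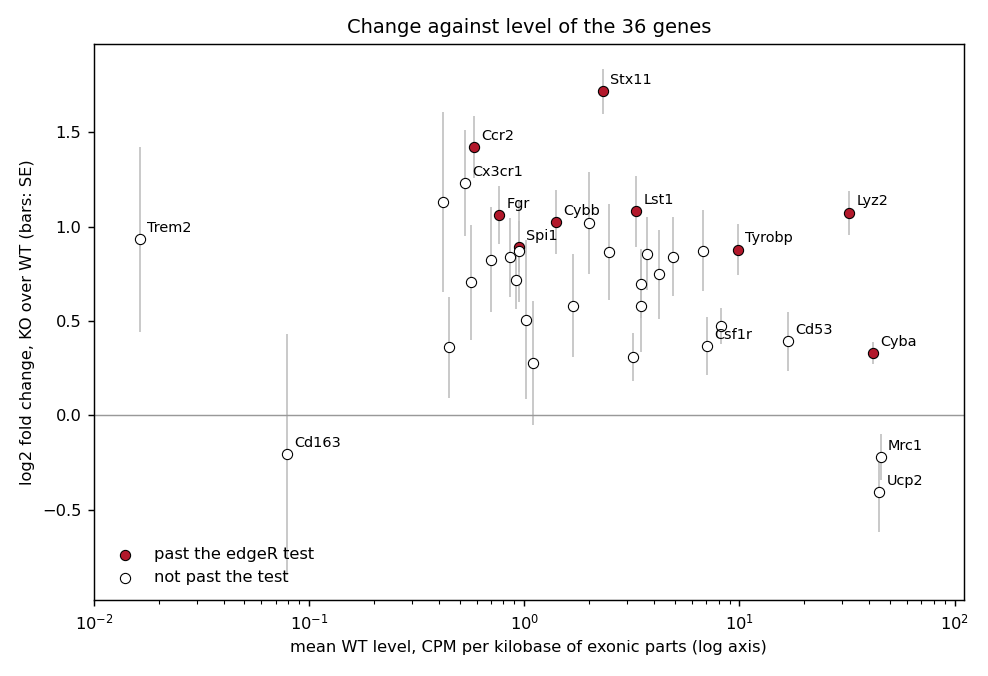
The log2 fold change of KO over WT (bars, SE) of each of the 36 genes against its mean WT level in CPM per kilobase of exonic parts (log axis), with the 9 genes past the edgeR test filled. Mrc1 and Ucp2 stand at the right at 45.3 and 44.7 CPM per kilobase and below 0, next to Cyba at 41.7 and Lyz2 at 32.4 CPM per kilobase above it, while Trem2 and Cd163 stand at the far left with wide bars.

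The levels of the 36 genes spanned a wide range. In WT, 24 of them averaged under 10 CPM and 12 reached 10 CPM or more, and 7 of the 24 and 2 of the 12 rose in KO. Mrc1 and Ucp2 alone made up 47.7%, 45.2% and 44.3% of the summed CPM of the 36 genes in KO1, KO2 and KO3, and 61.5%, 68.6% and 58.8% in WT1, WT2 and WT3. The sum of all 36 was 1062, 948 and 1050.3 CPM in KO and 936, 941 and 893 CPM in WT. Without Mrc1 and Ucp2, left out after their values were seen, it was 555, 519.8 and 585 CPM in KO and 360.3, 295 and 368 CPM in WT, which is given as a description with no test.

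Along the exons, the higher level in KO was spread over the transcripts. Of 560 exonic parts of the 36 genes with at least 10 counts, 472 were higher in KO, or 84.3%, beside 46.4% of 278171 such parts of all genes tested. The median gene had reads over 96.4%, 95.0% and 97.7% of its exonic bases in KO1, KO2 and KO3, and over 94.3%, 91.4% and 96.0% in WT1, WT2 and WT3.

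Since CD2BP2 binds the U5 particle of the spliceosome, exon usage, the count of a part relative to the rest of its gene, was compared as well. None of 35 genes and none of 483 exonic parts passed diffSpliceDGE in edgeR at an adjusted p under 0.05, beside 0.383% of 15145 genes and 0.0627% of 236061 parts called in all. Trem2 had too few counts to be tested. At an unadjusted p under 0.05 there were 0 genes and 3 parts, part 30 of Csf1r (log2 usage -0.38), part 4 of Fgr (-0.78) and part 46 of Itgam (-0.81), beside 2.22% of all genes and 1.16% of all parts tested. With limma-voom's diffSplice 0 of the 35 genes passed as well. A p that misses the threshold does not show that usage was the same, and log2 usage of the 483 parts ranged from -1.12 to 0.81.

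Ptprc holds the best-known alternative exons of leukocytes. Exons 4, 5 and 6 encode stretches of the extracellular domain of CD45 and are kept in B cells and in part in naive T cells, while myeloid cells make mostly shorter forms. Their sequences are shown because the share of reads they take was measured, as they stand in the GENCODE vM21 transcript (GRCm38, minus strand), 5′ to 3′.
Ptprc exon 4, chr1:138122456-138122584: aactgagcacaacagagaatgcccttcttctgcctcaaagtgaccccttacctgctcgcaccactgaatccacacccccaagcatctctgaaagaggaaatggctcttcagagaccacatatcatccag
Ptprc exon 5, chr1:138120020-138120166: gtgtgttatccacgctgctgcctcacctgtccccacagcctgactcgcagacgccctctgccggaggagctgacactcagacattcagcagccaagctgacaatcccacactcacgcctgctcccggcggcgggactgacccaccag
Ptprc exon 6, chr1:138117754-138117894: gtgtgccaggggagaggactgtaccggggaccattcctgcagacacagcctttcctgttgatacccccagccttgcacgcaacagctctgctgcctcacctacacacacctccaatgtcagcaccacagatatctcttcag
In the authors' files these are exonic parts of 129, 147 and 141 bases, carried by 2, 3 and 3 of 5 annotated Ptprc transcripts. Together they took 1.63%, 1.66% and 2.03% of the Ptprc counts in KO1, KO2 and KO3, against 2.06%, 1.36% and 2.06% in WT1, WT2 and WT3. The groups overlapped, and the means were 1.77 ± 0.224% in KO and 1.83 ± 0.406% in WT (SD, n = 3 each; exact two-sided permutation test, p = 0.8, where 3 against 3 libraries cannot go below 0.1). These shares rest on 211, 109 and 214 counts in KO and 95, 46 and 141 counts in WT. Per base, the 3 exons stood at 24.3 ± 3.69% of the level of 6 parts shared by all transcripts in KO, and at 26.9 ± 5.53% in WT (SD, n = 3 each). These 6 parts lie on the 3′ side of exon 7, and no part on the 5′ side of exon 4 was used, so the percentages depend on that choice. For exon 5 this was 26.8 ± 2.76% in KO and 36.8 ± 7.76% in WT, for exon 4 it was 15.7% in KO and 15.2% in WT, and for exon 6 it was 29.6% in KO and 27.3% in WT. Exon 7, which 4 of the 5 transcripts carry, stood at 135% in KO and 139% in WT. A read that spans several parts is counted in each, which raises short parts.

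**Figure D3:**
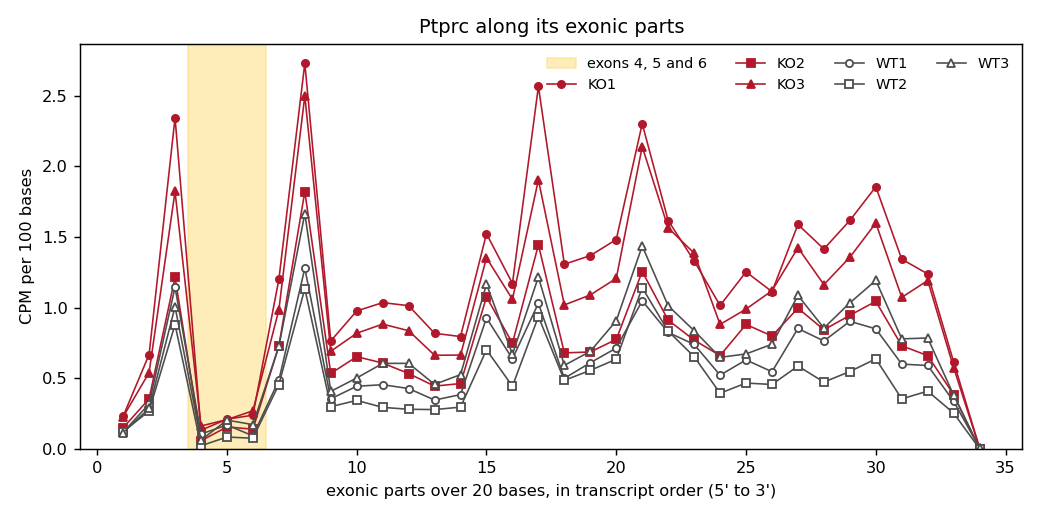
Ptprc CPM per 100 bases in its exonic parts over 20 bases long, from the 5′ to the 3′ end, in the 3 KO libraries (filled) and the 3 WT libraries (open), with exons 4, 5 and 6 shaded. Reads drop in the shaded exons in all 6 libraries, to 24.3% in KO and 26.9% in WT of the level of 6 shared parts on the 3′ side of exon 7. KO1 and KO3 run above the WT libraries along most of the gene.

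The partners and ligands of these receptors were examined as lists. Over 12 signalling partners downstream of ITAM adaptors, the median log2 fold change was 0.30, and 1 rose and 0 fell. At an unadjusted p under 0.05, 7 of the 12 were higher in KO and 1 lower, beside 11.5% of all genes tested that were higher. Every KO library lay above every WT library in 7 of the 12, beside 14.1% of all genes tested, and below in 1, beside 14.8%. The phosphatase genes Ptpn6 (0.81, edgeR adjusted p = 0.0776) and Inpp5d (-0.45, adjusted p = 0.0648) differed in sign and did not pass. Of 6 macrophage growth factors and chemokines, 4 were tested and 0 passed. Csf1 stood at 140.3, 128 and 133 CPM in KO1, KO2 and KO3, against 147, 124 and 122 CPM in WT1, WT2 and WT3, with the groups overlapping. Il34, the other ligand of the CSF1 receptor, had a log2 fold change of 0.37 (adjusted p = 0.103) and Cx3cl1, the ligand of CX3CR1, 0.22 (0.348).

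A further list of 10 macrophage genes held 2 that rose and 0 that fell, and the median log2 fold change was 0.78. In 4 of the 10 every KO library lay above every WT library, beside 14.1% of all genes tested, and in the others the groups overlapped. A few of the 10 made up most of their summed level. Cd83, an activation marker of antigen-presenting cells, had 4.16, 4.08 and 3.68 CPM in KO1, KO2 and KO3, against 1.98, 1.62 and 2.18 CPM in WT1, WT2 and WT3. Its groups stood well apart (edgeR adjusted p = 0.0297, with a log2 fold change of 1.04 and an SE of 0.15), and with a library left out it passed only without WT3 (0.047, and 0.0517 to 0.114 in the others). Ctss, which encodes the lysosomal protease cathepsin S, had 20.2, 16.4 and 18.7 CPM in KO1, KO2 and KO3, against 12.5, 9.46 and 10.6 CPM in WT1, WT2 and WT3. Its groups did not overlap (0.76, SE 0.13, adjusted p = 0.0385), and the call ended with any 1 library left out (0.0693 to 0.149).

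Markers of other blood cells were measured beside these genes. Of 7 B cell markers 0 passed, their median log2 fold change was 0.97 and their summed level was 13.5 to 20.6 CPM in KO and 5.71 to 12.6 CPM in WT, without overlap of the groups. In 5 of the 7 every KO library lay above every WT library, beside 14.1% of all genes tested. At an unadjusted p under 0.05, 5 of the 7 were higher in KO, beside 11.5% of all genes tested. Of 10 T and NK cell markers 0 passed (median 0.47; sums of 32.4 to 45.5 CPM in KO and 27.7 to 36.2 CPM in WT). The 8 dendritic cell markers (0.34; 134 to 149.8 CPM in KO, 124 to 139 CPM in WT) had 0 calls. So did the 7 tested of 10 neutrophil markers (0.55; 14.1 to 14.7 CPM in KO, 8.62 to 14.8 CPM in WT), of which Elane had 0 counts in all 6 libraries. Mast cell markers had 0 calls of 3 tested, with Cpa3 nearest (1.06, edgeR adjusted p = 0.0525) and sums of 6.03 to 9.31 CPM in KO and 3.82 to 6.72 CPM in WT. Platelet markers had 0 calls of 4, at 5.32 to 7.43 CPM in KO and 5.24 to 8.18 CPM in WT, and erythroid markers 0 of 2 tested. The erythroid sum was 7.58 to 30.2 CPM in KO and 3.29 to 55.6 CPM in WT, with KO3 and WT3 the highest of their groups. A few identifiers made up most of the dendritic and of the T and NK sums. Some of these identifiers join a marker with another gene, so the sums say little about the other markers. Ms4a2 made up most of the mast cell sum and Itga2b most of the platelet sum in every library. Ltf had the highest level of the neutrophil markers in every library.

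Of the kidney lists, podocyte markers had 0 that rose and 1 of 8 that fell, Nphs1 (-0.53, edgeR adjusted p = 0.035, and 0.0588 to 0.15 without any 1 library). Their summed level was 19415 to 21201 CPM in KO and 21837 to 24546 CPM in WT. Of 6 proximal tubule markers 2 rose, Slc34a1 (0.57, adjusted p = 0.0459) and Slc22a12 (0.52, adjusted p = 0.033), each passing with a library left out only without KO3 (0.0306 and 0.0468). Their median log2 fold change was 0.53, and in 3 of the 6 every KO library lay above every WT library, beside 14.1% of all genes tested. The proximal tubule sum was 462 to 621 CPM in KO and 311 to 447 CPM in WT. Of 6 markers of the loop and distal nephron, collecting duct included, Avpr2 rose (1.20, adjusted p = 0.0489, and 0.0511 to 0.195 without any 1 library), and the sum was 506, 1354 and 255 CPM in KO1, KO2 and KO3, against 323, 173 and 256 CPM in WT1, WT2 and WT3. KO2 was thus the highest KO library for tubule markers and the lowest for most of the 36 genes, and WT2 was the lowest WT library for both. Of 6 endothelial markers 0 passed, and 1 was lower at an unadjusted p under 0.05. In 2 of the 6 every KO library lay below every WT library, beside 14.8% of all genes tested. The summed level of the endothelial markers was 5843 to 6182 CPM in KO and 6329 to 6655 CPM in WT, so the groups did not overlap. Of 6 mesangial and smooth muscle markers 0 passed, with sums of 2220.2 to 2689 CPM in KO and 2409 to 2665 CPM in WT. The part of these other cells in the levels of the 36 genes was not tested.

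**Figure D4:**
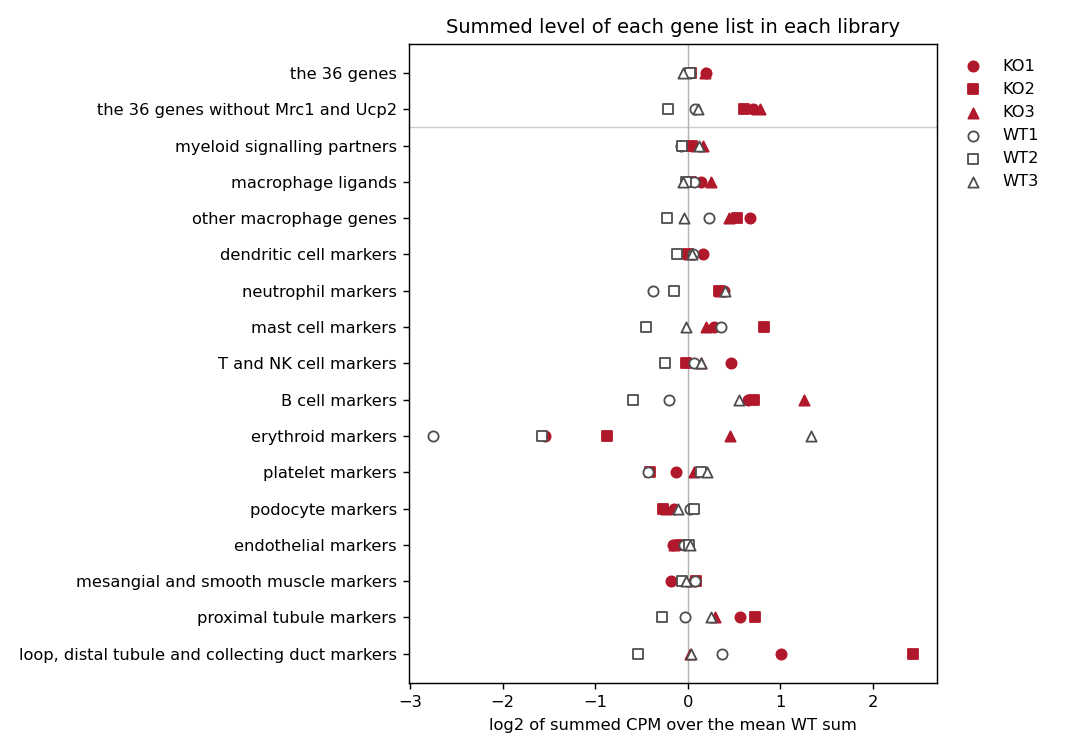
Summed CPM of each gene list in each library, as log2 over the mean WT sum, with the 3 KO libraries filled and the 3 WT libraries open. The 36 genes without Mrc1 and Ucp2 and the further macrophage genes stand higher in each KO library than in each WT library, as do the B cell list and the proximal tubule list, the last at 462 to 621 CPM in KO against 311 to 447 CPM in WT, while the list from the loop to the collecting duct spreads widest among KO libraries.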

How the data were processed

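Polyadenylated RNA was sequenced by the authors in 3 KO and 3 WT libraries. Per the file headers, each deposited table uses Ensembl 67 on the mouse build NCBIM37, cut into 368092 exonic parts. It gives the raw read count of each part, its covered bases, its length, and the covered fraction of the part, which per the deposited values is covered bases over length. TopHat 1.4.1 is listed in the submitters' processing notes, together with GRCh37, which is human and contradicts the headers. No source used here gives the counting tool or its strand setting, so reads of overlapping genes on opposite strands may not be told apart.

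Counts were summed over the parts of a gene, and a read across several parts is counted in each. Symbols came from GENCODE vM21 by identifier (32919 of 37991 single identifiers matched), used for names only. KO was tested against WT per gene with edgeR 4.0.16 under R 4.3.3 (TMM, filterByExpr defaults, quasi-likelihood fit, all 6 libraries, no covariates, Benjamini-Hochberg over 19742 genes). For exon usage, diffSpliceDGE of edgeR was run on filtered parts of genes with at least 2 of them, with genes summarised by Simes' method. CPM used the effective library size, and SciPy 1.17.1 gave the exact permutation tests. On simulated counts of 19501 genes the gene test recovered 21.9%, 36.4% and 86.2% of genes changed 1.5-, 2- and 4-fold, with 2 false calls of 96. On 54193 simulated parts in 2999 genes, the usage test recovered 32.8%, 76.1% and 90.9% of parts changed 1.5-, 2- and 4-fold, with 12 false of 145 genes called. Chi-square per gene between replicates was 76.2 to 223, far above sampling noise, so all 6 were kept as separate samples.

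The 36 genes and the other lists were chosen with earlier results of these data known. All 36 are named. Values in every library are given for those past the test and for the 3 with the highest level per kilobase in each group of roles that holds one past it. Of the other lists, genes past the test are named, and otherwise up to 2 with the smallest p, except that some genes are not reported here. Further genes were added as examples after their values were seen. Promoters are those of the risen genes with the smallest p that hold the searched letters, from RefSeq. Alternatives were RLE size factors, no filter, at least 1 CPM in 3 libraries, DESeq2 1.42.0, voom in limma 3.58.1, a replicate block, each library left out in turn, parts that overlap no other gene, and the longest part of each gene.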

Additional observations from a re-analysis of the deposited data

How the results depend on the processing

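Of the fold changes of the 36 genes under the 14 alternatives, 429 kept their direction and their side of the threshold, 47 lost the call, 16 gained it and 5 turned their sign. The sign turned for Cd163 without KO1 (0.15) and without WT3 (0.43), within -0.94 to 0.43 over the fits with a library left out, for Fcgr3 without WT2 (-0.026, within -0.026 to 0.50), and on the longest exonic part alone for Fcgr1 (-0.34) and Cd52 (-0.10). The count of changed genes, 666, was 2766 with DESeq2, 424 on the longest part alone, and 31 to 254 with a library left out. The count of the 36 genes that rose, 9, was 22 with DESeq2 and 2 to 3 with a library left out. It was 8 to 10 with RLE size factors, no filter, at least 1 CPM in 3 libraries, limma-voom, parts that overlap no other gene and the longest part. With the replicate number as a block, 82 genes changed and 2 of the 36 rose, Coro1a and Stx11. Deviations of same-numbered libraries correlated at 0.15, -0.11 and 0.23, and those of the other pairs at -0.33 to 0.19. With 3 libraries per group these values cannot decide whether the numbers pair the libraries. For exon usage, 58 genes were called, against 245 with limma-voom diffSplice and 35 to 71 with a library left out, the lowest without WT2, and 0 of the 35 genes tested here passed in any of these. The cause of these shifts was not tested, though the fits with a library left out hold fewer samples. The median log2 fold change of the 36 genes was 0.67 to 0.89 with a library left out. Trem2 rested on 6 to 39 counts per library and Cd163 on 32 to 139.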
